A study of Homo sapiens with 28 samples.

Results

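Normoxia-only H3K27ac domains are the peaks of acetylated histone H3 lysine 27 (H3K27ac) that were listed in T47D cells in normoxia and shared no base with any H3K27ac peak listed in hypoxia. They were chosen by position alone, as peaks of the normoxia list on chromosomes 1 to 22 and X with no overlap of at least 1 bp with a hypoxia peak. This gave 4651 domains of 42586 normoxia H3K27ac peaks (10.9%), out of 349107 peaks in all 8 peak lists of the study. The other 37935 normoxia peaks overlapped a hypoxia peak and are called shared below, and 9041 of 46713 hypoxia peaks (19.4%) had no normoxia partner and are called hypoxia-only. Because the choice used the hypoxia and normoxia lists themselves, the domains' own fold, width and distance to hypoxia peaks are given as a description.

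T47D is an established luminal breast cancer cell line, and the study asked how the zinc finger and homeobox protein ZHX2 acts on chromatin in hypoxia. Chromatin immunoprecipitation and sequencing (ChIP-seq) was done against H3K27ac, CTCF and ZHX2 in hypoxia and in normoxia, and against Flag in hypoxia in samples titled PA (a ZHX2 mutant, per the series' design text) and WT. Each of these 8 groups had 2 samples and 1 deposited peak list, 12 further samples had no antibody, and 4 of those are titled Flag. The oxygen level, the time in hypoxia and the residues changed in PA are not given in the sources used here, nor is which samples went through the lentiviral infection and drug selection that the growth protocol describes. No list holds values per sample, so no difference between hypoxia and normoxia has a replicate check and none was tested, and read depth is unknown. Intervals are 95% Wilson intervals for shares and Newcombe intervals for differences of shares, and cover counting error over regions only. Neighbouring regions share a locus, so these intervals are too narrow for independent sites.

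Acetylation of H3 lysine 27 is laid down by the acetyltransferases p300 and CBP at active promoters and enhancers, and is removed by histone deacetylases. Strong promoters usually carry broad, high peaks, while single enhancers carry narrower ones. CTCF binds DNA through its zinc fingers and, with cohesin, sits at the anchors of chromatin loops and at domain boundaries. ZHX2 is known as a transcriptional regulator and as a target of the VHL ubiquitin ligase in renal cancer.

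The label of the cells was checked at gene starts (within 1 kb). All 8 luminal markers checked had an H3K27ac peak there in hypoxia and in normoxia, with folds of 25.8 in hypoxia and 25.5 in normoxia at ESR1 (oestrogen receptor alpha), 46.3 in hypoxia and 49.9 in normoxia at GATA3, and 54.2 in hypoxia and 33.7 in normoxia at FOXA1, both transcription factors of luminal cells. Of the basal or myoepithelial markers 1 of 5 had a peak (ACTA2), and of the immune or stromal markers 3 of 7 (CD3E, CD68 and COL1A1), in hypoxia and in normoxia alike. None of these 20 markers had a normoxia-only domain at its start.

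Few domains lay at promoters. The 4 sequences below run from 250 bases before to 50 after a gene start (RefSeq, GRCh38.p14, 5′ to 3′ on the gene's strand). They are shown because a domain was the H3K27ac peak listed at that start in normoxia and the hypoxia list had none within 1 kb. Of the 20 domains with the highest fold at a start, 10 had an entry in the promoter table, and of those with no hypoxia peak these 4 had the most promoter bases inside the domain, between 68 and 300. Capitals mark ACGTG or GCGTG on either strand, the core letters of the hypoxia response element.
SYN1 (synapsin, a synaptic vesicle protein; chrX:47619808-47620107, minus strand, 133 bases in the domain): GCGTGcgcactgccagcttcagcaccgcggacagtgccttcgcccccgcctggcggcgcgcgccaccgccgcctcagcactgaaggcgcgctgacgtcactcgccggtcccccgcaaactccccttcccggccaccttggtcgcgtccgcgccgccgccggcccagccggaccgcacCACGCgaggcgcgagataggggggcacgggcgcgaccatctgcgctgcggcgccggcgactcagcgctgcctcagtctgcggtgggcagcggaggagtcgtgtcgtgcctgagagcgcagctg
ESYT3 (an extended synaptotagmin of membrane contact sites; chr3:138434366-138434665, plus strand, 68 bases in the domain): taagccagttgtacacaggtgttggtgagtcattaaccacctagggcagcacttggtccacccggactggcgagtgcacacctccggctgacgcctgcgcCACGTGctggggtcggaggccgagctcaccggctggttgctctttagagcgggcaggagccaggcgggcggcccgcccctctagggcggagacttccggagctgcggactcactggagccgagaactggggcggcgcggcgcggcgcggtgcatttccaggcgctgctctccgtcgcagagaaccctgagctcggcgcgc
PIP5K1B (a phosphatidylinositol phosphate kinase; chr9:68704990-68705289, plus strand, all 300 bases in the domain): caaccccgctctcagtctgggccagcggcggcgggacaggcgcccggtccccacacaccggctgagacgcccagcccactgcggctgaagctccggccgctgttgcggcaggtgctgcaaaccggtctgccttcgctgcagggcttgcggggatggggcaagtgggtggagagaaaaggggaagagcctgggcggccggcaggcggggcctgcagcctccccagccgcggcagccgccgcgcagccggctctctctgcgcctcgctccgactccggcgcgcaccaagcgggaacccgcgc
SH3PXD2B (an adaptor protein of podosomes; chr5:172454476-172454775, minus strand, all 300 bases in the domain): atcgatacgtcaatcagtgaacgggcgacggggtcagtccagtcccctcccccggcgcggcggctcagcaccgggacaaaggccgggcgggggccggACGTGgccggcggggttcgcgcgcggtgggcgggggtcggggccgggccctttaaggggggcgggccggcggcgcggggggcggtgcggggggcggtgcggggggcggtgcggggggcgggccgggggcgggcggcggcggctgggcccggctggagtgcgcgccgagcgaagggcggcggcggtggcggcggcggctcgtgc

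Among the named starts with no hypoxia peak, IL22RA1 (8 CG dinucleotides) and RPS6KL1 (7) were CpG-poor. The 4 promoters shown were CpG-rich, with 46 CG dinucleotides at SYN1, 30 at ESYT3, 33 at PIP5K1B and 52 at SH3PXD2B. The core letters occurred at 2 places in SYN1 and once in SH3PXD2B. In ESYT3 they formed the palindrome CACGTG, which reads on both strands, and PIP5K1B had none. Over all promoter entries of the kind (80 entries where a domain was the only H3K27ac at the start), the median was 21 CG dinucleotides (quartiles 4 and 29.3), against 21 for all entries, 26 for 13805 entries with H3K27ac in hypoxia and normoxia and no domain, 15 for 293 entries with H3K27ac in hypoxia alone, and 6 for 7915 entries with no H3K27ac. ACGTG on either strand was in 28.8% of the 80 entries, against 26.3% of entries with H3K27ac in both conditions, 17.4% with no H3K27ac, 23.9% with H3K27ac in hypoxia alone and 23.1% of all 22132. GCGTG was in 33.8% of the 80, against 51.0% of those with H3K27ac in both conditions, 29.5% with no H3K27ac, 34.1% with H3K27ac in hypoxia alone and 43.0% of all. TATAAA, the core of the TATA box, was in 15.0% (12 of 80), against 5.21% with H3K27ac in both conditions, 16.8% with no H3K27ac, 9.90% with H3K27ac in hypoxia alone and 9.46% of all. The AP-1 motif TGANTCA was in 11.3% (9 of 80), against 4.24% with H3K27ac in both conditions, 9.39% with no H3K27ac, 6.83% with H3K27ac in hypoxia alone and 6.15% of all. All motifs were searched on both strands in the same 300 bases. These are matches of letters, counted in few promoters.

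Normoxia-only domains were short and weak peaks. Their median width was 419 bp (quartiles 269 and 673 bp, longest 6572 bp), against 1627 bp for shared peaks, so they made up 2.57% of the 96.9 Mb that the normoxia list covers. Their median fold enrichment, the authors' ratio over background, was 3.00 with a maximum of 7.79, against a median of 5.94 and a maximum of 56.2 for shared peaks. Their median −log10 q was 6.03, against 31.3. Of the domains, 9.83% (457) were at least 1000 bp wide, against 69.6% of shared peaks. The medians of hypoxia-only peaks were 450 bp for width and 2.93 for fold.

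**Figure D1:**
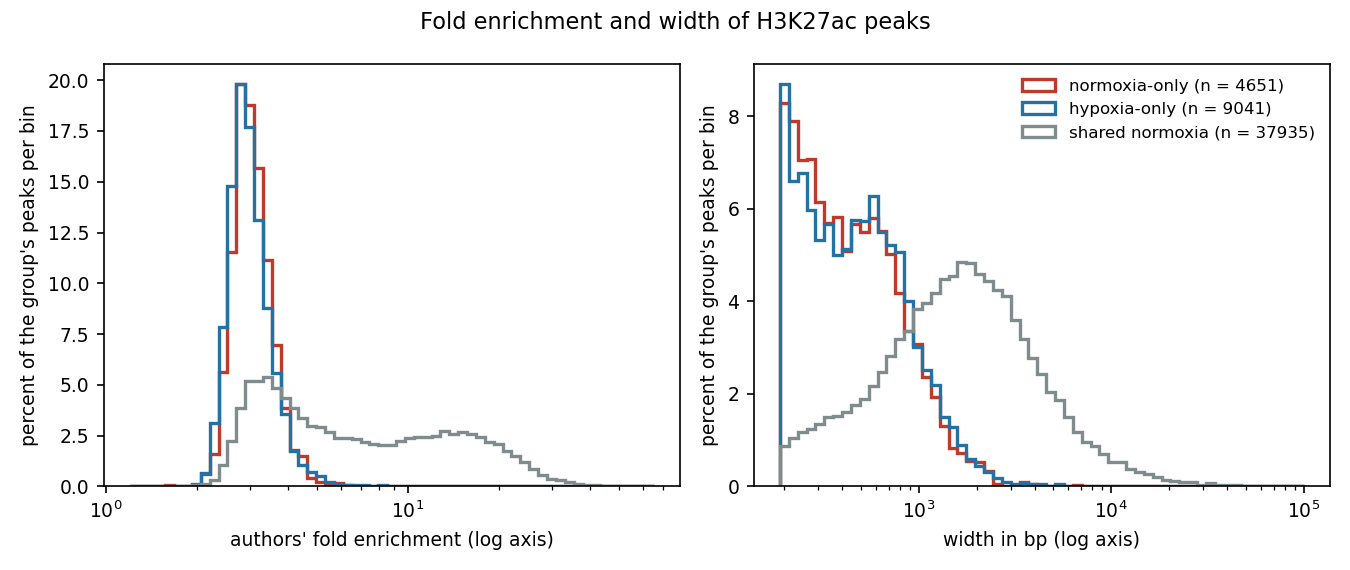
Distribution of the authors' fold enrichment (left) and of width in bp (right), both on log axes, for normoxia-only, hypoxia-only and shared normoxia H3K27ac peaks, each as percent of its own group per bin. The normoxia-only and hypoxia-only curves lie almost on each other at low fold and short width, while shared peaks reach a fold of 56.2.

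The share of peaks without a hypoxia partner followed peak strength. In the weakest of 10 equal classes of the normoxia list by −log10 q, 42.9% of peaks were normoxia-only. The share was 31.5% in the next class, then 21.4%, 10.2%, 2.84% and 0.423%, and no domain had a −log10 q in the 4 strongest classes. A domain therefore had a −log10 q of at most 38.6, where the normoxia list reaches 4062. The weakest peak of each H3K27ac list had a −log10 q of 3.47 in hypoxia and 3.49 in normoxia, and a locus just under that limit in hypoxia is not listed, so absence from the hypoxia list does not give the size of a change.

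**Figure D2:**
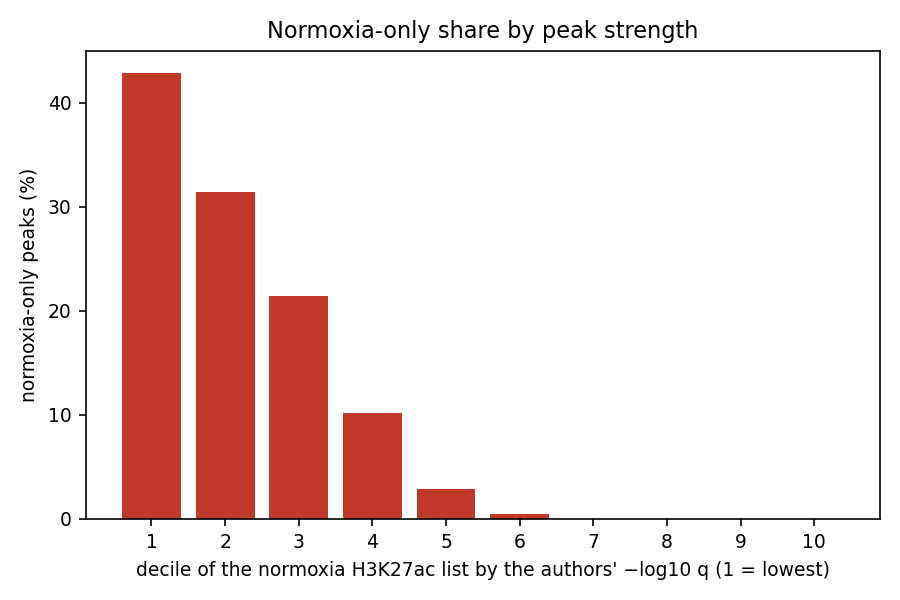
Percent of normoxia H3K27ac peaks that were normoxia-only, in 10 equal classes of the normoxia list by the authors' −log10 q, weakest at the left. The bar of the weakest class stands at 42.9%, and the 4 strongest classes have none.

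Most domains had other H3K27ac nearby. The median gap to the nearest hypoxia peak was 4695 bp, and 51.7% of domains (50.2 to 53.1%) lay within 5 kb of one. A hypoxia peak lay within 5 kb on both sides of 16.3% of domains, and 11.2% (522) had none within 50 kb. At the edge of the rule, the domains nearest to a hypoxia peak stood 1 bp away at ITPR1 and 2 bp away near SLC38A10, with folds of 2.92 and 2.67. The shared peaks with the least overlap met their partner by 1 bp near NOTCH2NLA and by 2 bp near RFPL1, with folds of 2.80 and 2.97. The domains were on every chromosome analysed, from 5.44% of normoxia peaks on chromosome 19 (4.56 to 6.48%) to 15.0% on chromosome 21 (12.5 to 17.9%), with a median over chromosomes of 11.3%. Chromosome 19 also had the highest median −log10 q of the normoxia list (41.6) and chromosome 21 the lowest (17.6). The part of peak strength in this order was not tested.

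Normoxia-only domains lay away from gene starts. Their median distance to the nearest protein-coding start was 33.3 kb, against 12.3 kb for shared peaks and 19.8 kb for hypoxia-only peaks. Of the domains, 144 (3.10%, 2.64 to 3.63%) came within 1 kb of a start, against 31.0% of shared peaks and 27.9% of all normoxia peaks. The difference was −27.9 percentage points (−28.6 to −27.2) and the share was lower on 23 of 23 chromosomes. Shared peaks, being wider and stronger, were also weighted to the widths of the domains, which gave 11.7%, and to width and fold together, which gave 6.11%. Hypoxia-only peaks came within 1 kb of a start in 4.31%, 1.22 points more than the domains (interval of the difference, normoxia-only minus hypoxia-only, −1.85 to −0.55). Gene spans, without a margin, held 57.0% of domains, against 68.5% of shared peaks, 67.8% of hypoxia-only peaks and 67.3% of all normoxia peaks.

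Of 19974 protein-coding genes, 147 (0.736%) had a domain within 1 kb of a start. Peaks were counted over all starts of a gene together. At 83 of these genes the domain was the only H3K27ac peak of either list within 1 kb of a start. At 61 the hypoxia list had a peak within 1 kb of a start, which need not be the start with the domain. At ZBTB20, for example, the nearest hypoxia peak stood 198833 bp from the domain. In all, 102 genes (0.511%) had H3K27ac at a start in normoxia and at no start in hypoxia, and 272 had it at a start in hypoxia and at none in normoxia. Where the promoter table had no entry for a gene, either annotated end counted as a start.

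The domain with the highest fold at a start lay at SYN1 (chrX:47619630-47619940, 311 bp, fold 5.82). It overlapped CTCF in hypoxia and in normoxia, ZHX2 in hypoxia and Flag in WT, and the nearest hypoxia H3K27ac was 3528 bp away. The next was at IL22RA1, a subunit of an interleukin receptor (chr1:24142811-24143122, fold 5.03), again on CTCF in hypoxia and in normoxia, with 7578 bp to the nearest hypoxia peak. The domain at RPS6KL1, a ribosomal S6 kinase-like gene (chr14:74922888-74923258, fold 4.99), overlapped CTCF in both conditions and Flag in PA and WT. TMEM132B had a domain of fold 4.33 (chr12:125186433-125186790) and no hypoxia H3K27ac for 105798 bp. SYNM, the gene of the intermediate filament protein synemin (chr15:99105105-99105326, fold 4.31), had a domain on all 6 other lists. These 5 starts had no hypoxia H3K27ac within 1 kb.

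Neuronal, cytoskeletal and signalling genes made up much of the rest of the 20. PIP5K1B had a domain of 673 bp (chr9:68704780-68705452, fold 4.27) that stood 74024 bp from hypoxia H3K27ac and overlapped CTCF in hypoxia and in normoxia. SH3PXD2B had one of 694 bp (chr5:172454199-172454892, fold 3.99) that overlapped CTCF in hypoxia and in normoxia, ZHX2 in hypoxia, and Flag in PA and WT. ESYT3 had one of 475 bp (chr3:138434598-138435072, fold 4.27), on WT Flag alone. No hypoxia H3K27ac was listed within 1 kb of these 3 starts. The same held for LOC107987025, TEX19, LOC107986768, DIRAS1 (a Ras-like GTPase), ZNF366 (a zinc finger protein) and SCUBE3 (a secreted glycoprotein), with folds between 3.94 and 4.28. At CDC42EP5 (a Cdc42 effector, fold 4.96), SH3BGRL2 (4.41), ZBTB20 (a zinc finger repressor, 3.96), TNS4 (a tensin of focal adhesions, 3.94) and NEGR1 (a neural adhesion protein, 3.90) the hypoxia list had a peak within 1 kb of a start or counted end. At SH3BGRL2, ZBTB20 and TNS4 this was another start or end than the domain's, with the nearest hypoxia peak 19520, 198833 and 16553 bp from the domain. At CDC42EP5 and NEGR1 it stood 590 and 357 bp away. CDC42EP5, TNS4 and the genes from LOC107987025 to SCUBE3 had no promoter entry, so the counted end may not be the start.

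Of the 10 widest domains, 4 lay inside a gene span. The widest of all, 6572 bp at fold 3.64, lay 658346 bp from its nearest start, that of ANXA1, an annexin (chr9:73810211-73816782), and overlapped none of the 6 lists. A domain of 4114 bp (chr1:215407227-215411340, fold 2.87) lay 155964 bp from KCTD3. One of 3984 bp (chr10:77345280-77349263, fold 4.62) lay inside KCNMA1, a calcium-activated potassium channel gene, 1498 bp from a start. Domains of 3613 bp in MORC3 (chr21:36327879-36331491) and 3571 bp nearest to ARRDC3 (chr5:92049631-92053201) overlapped CTCF in hypoxia and in normoxia. KCNK2, another potassium channel gene, held a domain of 3420 bp (chr1:215179862-215183281, fold 4.46) with CTCF in both conditions. The domain in SLC25A48, a mitochondrial carrier gene (chr5:135720435-135723765, 3331 bp), had a fold of 6.46, the third highest of all domains, with 78775 bp to the nearest hypoxia peak. It overlapped CTCF in normoxia and not in hypoxia. The other 3 of the 10 widest, nearest to FSCB, ERICH6 and DNAJB9, measured between 2520 and 3391 bp. The 2 highest folds of all, 7.79 and 6.61, belonged to domains of 270 and 251 bp near NPIPB15 (chr16:74348907-74349176 and chr16:74345964-74346214). NPIPB15 belongs to a family of near-identical copies, so reads there may be shared between loci and these folds are uncertain.

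Long genes collected the most domains. In all, 2002 genes (10.0% of protein-coding genes) held at least 1 domain in their span, here counted with 1 kb on each side. Their median length was 80.6 kb, against 24.2 kb for all protein-coding genes. Of them 1552 held 1 domain and 48 held 5 or more. A hypoxia H3K27ac peak was also listed in the span of 94.0%. STARD13, a GTPase-activating protein, held 15 domains among 43 normoxia peaks over 574 kb, with 5 hypoxia-only peaks among 35 hypoxia peaks. NCAM2, a neural cell adhesion molecule, held 12 of 34, with 3 hypoxia-only peaks of 29. FSIP1 held 11 of 19 in 185 kb, the densest of the leading 12 genes at 5.93 domains per 100 kb, and none of its 8 hypoxia peaks was hypoxia-only. PHACTR1, a regulator of protein phosphatase and actin, held 11 of 27 and no hypoxia-only peak among 16. AFF3, a nuclear transcription factor-like protein, held 11 of 31, with 3 hypoxia-only peaks of 30. NAALADL2 held 10 of 32 over 1370 kb. ZMIZ1, PLCE1 (a phospholipase C), ESR1, DST (a cytoskeletal linker), MECOM (a zinc finger transcription factor) and KCNMA1 held 8 each.

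ESR1 had more hypoxia-only peaks than domains. Its 8 domains were among 41 normoxia peaks, while 18 of its 50 hypoxia peaks were hypoxia-only. ZMIZ1 likewise had 9 hypoxia-only peaks beside its 8 domains, and PLCE1 had none. These 12 genes were ranked by their number of domains, so their counts are descriptions, and every one of them had H3K27ac at a start in hypoxia and in normoxia.

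**Figure D3:**
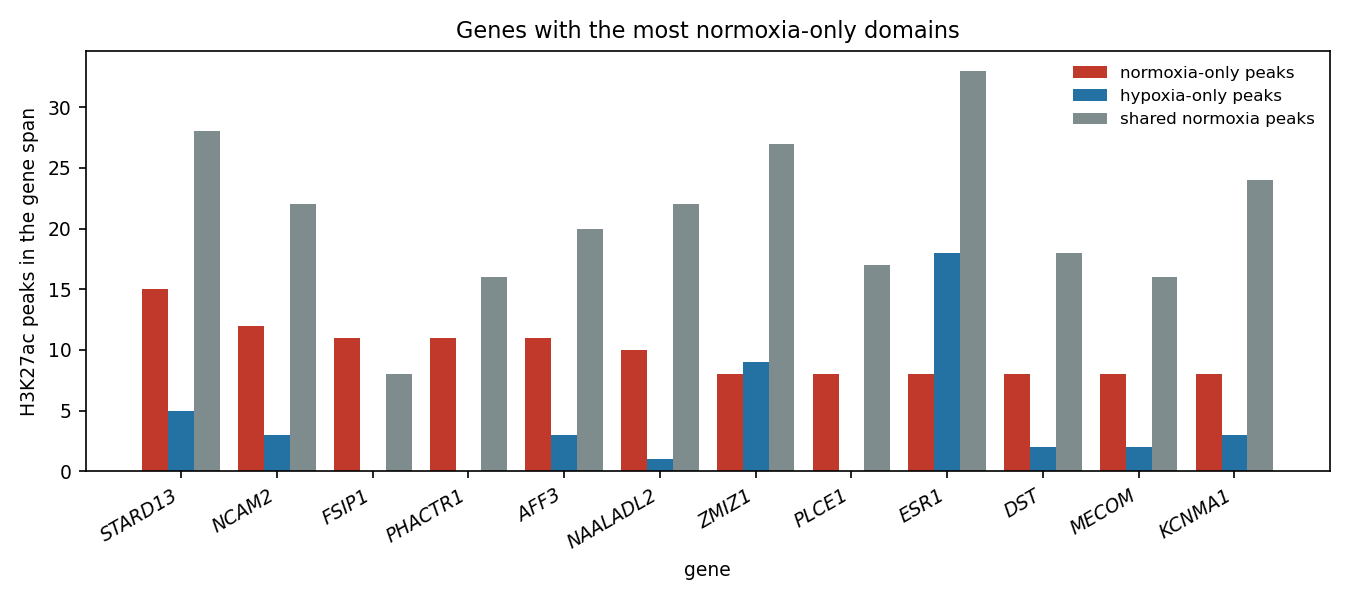
Number of H3K27ac peaks in the span (plus 1 kb) of the 12 protein-coding genes with 8 or more normoxia-only domains, as normoxia-only, hypoxia-only and shared normoxia peaks. FSIP1 has 11 normoxia-only peaks and 0 hypoxia-only, PHACTR1 11 and 0, and ESR1 8 and 18.

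Some domains stood in runs. Joined across gaps of up to 10 kb between domains, 828 (17.8%, 16.7 to 18.9%) fell into 376 clusters, of which 316 were pairs and 60 had 3 or more. Among hypoxia-only peaks 28.8% had another within 10 kb, and among shared peaks 55.3%, in lists of 9041 and 37935 peaks that are denser along the genome. No hypoxia H3K27ac peak lay inside 266 of the 376 clusters (70.7%), nor inside 35 of the 60 with 3 or more domains (58.3%). By the rule the domains themselves hold no hypoxia peak, so only the gaps between them could. No share for other gaps of this size was computed, so these shares are a description. Within 50 kb, 43.1% of domains had another.

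The run with the most domains was in NCAM2, with 6 in 15.0 kb (chr21:21249445-21264486). Their widths were between 200 and 1337 bp and their folds between 2.79 and 3.09. No hypoxia peak and no shared peak lay between them, none overlapped CTCF or ZHX2 in either condition, and the nearest hypoxia peaks stood 1193 bp before the first and 1419 bp after the last. The cluster at CXCL14, a chemokine gene, had 5 domains in 10.3 kb (chr5:135561108-135571428), also with no hypoxia H3K27ac inside. All 5 of them overlapped hypoxia CTCF and 3 overlapped normoxia CTCF. With gaps of up to 50 kb, the CXCL14 cluster reached into SLC25A48 and held 9 domains over 100 kb. Near SERPINA1, the alpha-1 antitrypsin gene, 5 domains in 23.5 kb (chr14:94348538-94372071) lay among 3 hypoxia peaks and 3 shared normoxia peaks. In ITPKB, an inositol trisphosphate kinase gene, 5 domains in 24.4 kb (chr1:226650022-226674442) lay among 4 hypoxia peaks and 2 shared normoxia peaks. Of the clusters of 4, the one nearest to DNAJB9 covered 14.5 kb (chr7:108798463-108812927) and summed to 4626 bp of H3K27ac, the most of the leading clusters. Clusters of 4 in KCNK2 (20.9 kb) and near P2RY10 (11.0 kb, folds 3.42 to 5.09) had no hypoxia H3K27ac inside.

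**Figure D4:**
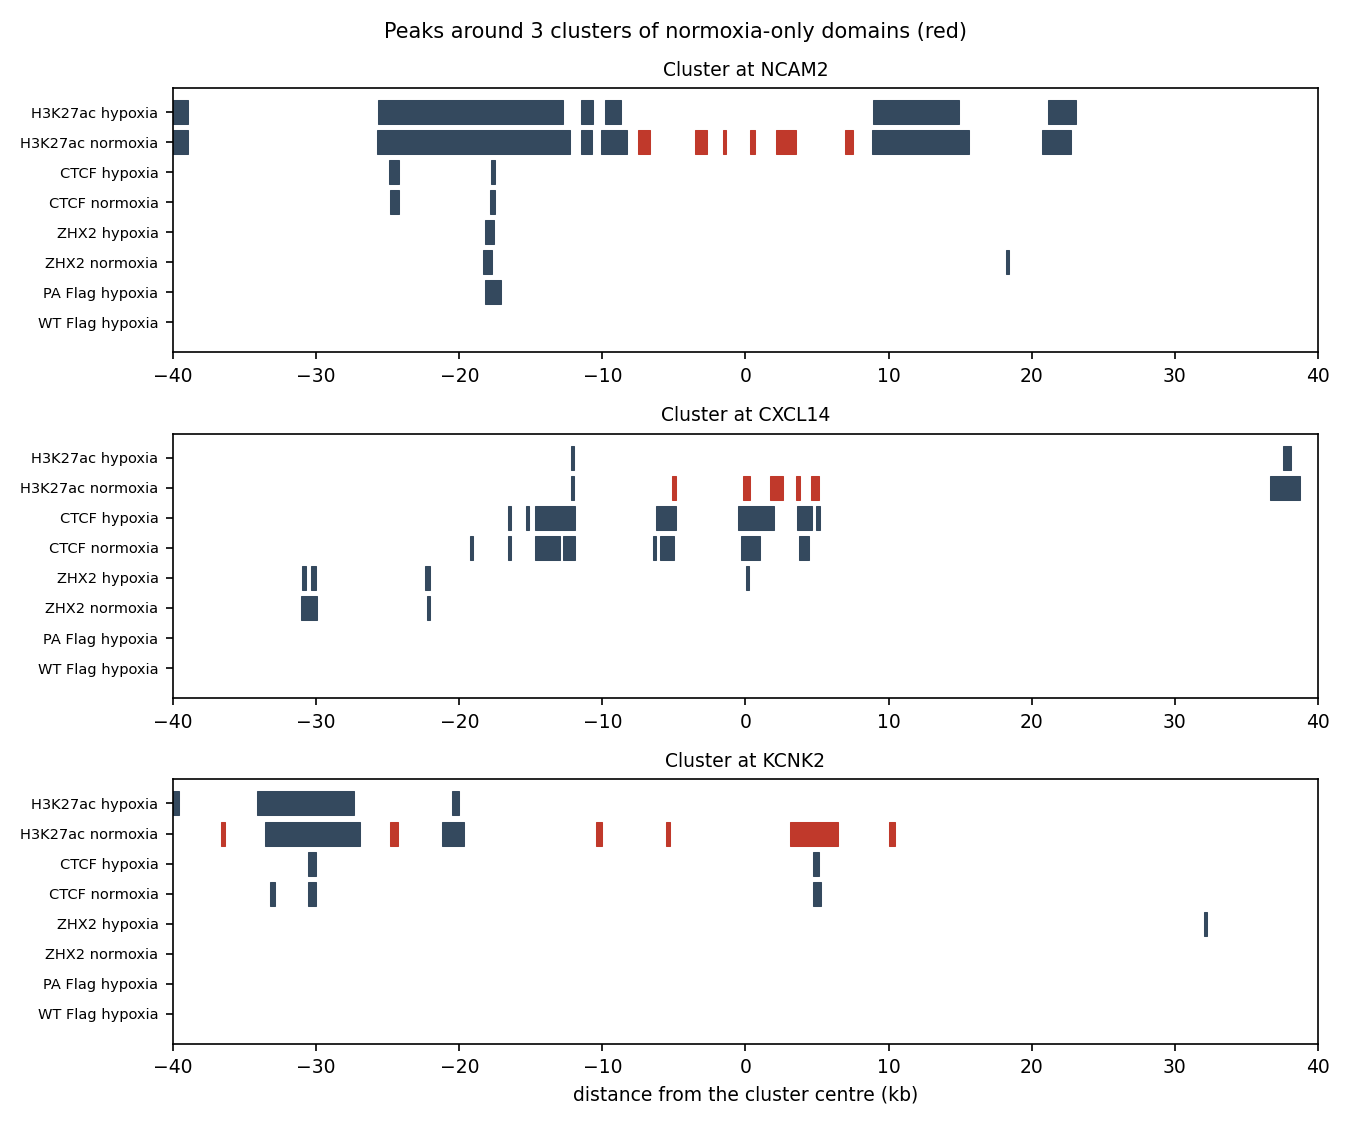
Peaks of the 8 lists within 40 kb of the centre of the clusters at NCAM2, CXCL14 and KCNK2, by distance from the cluster centre in kb, with normoxia-only domains in red and all other peaks in dark blue. The hypoxia H3K27ac row is empty above the 6 red domains at NCAM2 and the 5 at CXCL14, where CTCF peaks stand below the domains.

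Genes of the lists examined seldom had a domain at a start, where 0.736% of all protein-coding genes had one. At so low a share, lists of 20, 25 or 36 genes with none do not stand apart from all genes. Oestrogen signalling and hypoxia were the themes nearest to the study. None of 20 luminal identity genes and none of 25 oestrogen receptor target genes had one there, although 7 (35.0%) and 9 (36.0%) had one in the span, where 10.0% of all genes did. All 20 luminal and 24 of the 25 oestrogen target genes had normoxia H3K27ac at a start, against 63.8% of all genes. The part of H3K27ac peak number in these span shares was not tested. The luminal genes with a domain in the span were ESR1 (8 domains), GRHL2 (7 of 22 normoxia peaks, an epithelial transcription factor), ELF5 (2), and MYB, CDH1, KRT8 and PGR (1 each). Among oestrogen targets, GREB1 had 2 domains of 16 peaks, one of them 1485 bp wide, and AGR3 had 2 of 3, one of them 1549 bp wide. Of 36 hypoxia-induced genes none had a domain at a start and 5 (13.9%) had one in the span, namely BNIP3L (a mitophagy receptor), TMEM45A, P4HA1 (a collagen prolyl hydroxylase), CA12 (a carbonic anhydrase) and EGLN1 (an oxygen-sensing prolyl hydroxylase). Of 13 hypoxia signalling and ZHX family genes 4 had one in the span, namely ZHX2, EPAS1, ARNT and EGLN1. The ZHX2 domain was 2423 bp wide and overlapped Flag in PA and in WT. GATA3, FOXA1, MYC, CCND1, CTCF, HIF1A and VHL held no domain in their spans.

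Synaptic and neuronal adhesion genes were the list with the largest share at starts, 2 of 20 (10.0%), namely NCAM2 and NRXN3 (a neurexin), and 7 of 20 had a domain in the span, among them DSCAM (3) and DLG2 (4). The median length of these genes was 1250 kb, against 24.2 kb for all, and the part of gene length in these shares was not tested. CDH3 (P-cadherin) was the only basal marker of 11 with a domain at a start, FOSL1 (a subunit of AP-1) the only immediate-early gene of 30, and ZNF366, ZNF600, ZNF716 and ZNF229 were the 4 of 509 zinc finger genes (0.786%, near the 0.736% of all genes). For CDH3, FOSL1, ZNF366 and ZNF600 the promoter table had no entry. An annotated end was counted for them, which may be the end of the gene rather than its start. The hypoxia list had H3K27ac within 1 kb of a start or counted end at NCAM2, CDH3 and ZNF716 too, and none at NRXN3, ZNF366, ZNF600 and ZNF229. At FOSL1 it had a peak at the gene's other annotated end only, and the nearest hypoxia peak stood 5884 bp from the domain. No olfactory receptor gene of 390, no clustered protocadherin of 53 and no interferon response gene of 24 had a domain at a start or in the span. Of all protein-coding genes 0.736% had one at a start and 10.0% in the span. Normoxia H3K27ac itself was at a start of only 5, 25 and 17 of these genes, in the same order. The olfactory receptor genes had a median length of 2.985 kb, and the part of peak number and length was not tested. In the span, where 10.0% of all protein-coding genes had a domain, cell cycle genes had 3 of 26 (CDC6, MKI67 and CDK6). Chromatin looping genes had 4 of 17 (ESCO1, PDS5B, STAG2 and SMC1A, of the cohesin machinery), NF-kappaB pathway genes 2 of 20 and glycolysis genes 1 of 17 (HK1). The spans of oxidative phosphorylation genes held a domain in 2 of 23 (SDHB and COX5A), those of cholesterol synthesis genes in 2 of 23, and those of matrix and invasion genes in 1 of 28 (TGFB2, with 4 domains). Immune and stromal markers had 2 of 16 (VWF and PTPRC), keratins 2 of 55 and HOX genes 2 of 39 (HOXB3 and HOXB4, on the same domain). Replication-dependent histones had 2 of 70, cytosolic ribosomal protein genes 3 of 85 and mitochondrial ones 6 of 77. Median gene lengths of these lists ran from 0.49 kb (replication-dependent histones) to 67.5 kb (chromatin looping), and the part of length in these counts was not tested.

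The domains were then set against the other 6 lists, which the rule did not use. Of the domains, 3537 were on none of them (76.0%, 74.8 to 77.3%), against 33.7% of shared peaks. CTCF was the factor found most often. Hypoxia CTCF overlapped 15.4% of domains (14.4 to 16.5%), against 44.5% of shared peaks and 41.3% of all normoxia H3K27ac peaks, and normoxia CTCF 17.6%, against 47.7% of shared peaks and 44.4% of all. Hypoxia ZHX2 overlapped 4.49% of domains (209), against 42.4% of shared peaks and 38.3% of all, and normoxia ZHX2 2.09% (97), against 17.4% of shared peaks and 15.7% of all. PA Flag overlapped 1.78% (83), against 31.7% of shared peaks and 28.4% of all, and WT Flag 4.45% (207), against 43.7% of shared peaks and 39.4% of all. Each of the 6 shares was lower in the domains than in shared peaks on 23 of 23 chromosomes.

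Much of this difference went with peak size. Shared peaks weighted to the widths of the domains overlapped hypoxia CTCF in 29.6% and normoxia CTCF in 31.2%, hypoxia ZHX2 in 17.7% and normoxia ZHX2 in 6.42%, PA Flag in 9.86% and WT Flag in 17.3%. Weighted to width and fold together, a choice made after seeing the data, the same shares were 22.7%, 23.7%, 9.65%, 3.60%, 5.17% and 11.0%. The domains stayed below these values for each list, by between 1.51 points (normoxia ZHX2) and 7.26 points (hypoxia CTCF). The weighted shares carry no interval. Among the 2031 shared peaks whose fold and width both lay between the quartiles of the domains, hypoxia CTCF overlapped 20.1%, normoxia CTCF 21.7%, hypoxia ZHX2 8.37% and normoxia ZHX2 2.12%, the last close to the 2.09% of domains.

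Against hypoxia-only peaks, the group most like the domains in width and fold, the shares were close for the normoxia CTCF and normoxia ZHX2 lists alone. Normoxia CTCF overlapped 17.6% of domains and 17.5% of hypoxia-only peaks, and normoxia ZHX2 2.09% of domains and 2.07% of hypoxia-only peaks, with intervals of the difference of −1.27 to 1.43 and −0.47 to 0.55 points. The 4 lists made in hypoxia were all less frequent at the domains. Hypoxia CTCF overlapped 15.4% of domains and 18.5% of hypoxia-only peaks (difference −3.11 points, −4.41 to −1.79), hypoxia ZHX2 4.49% of domains and 5.66% of hypoxia-only peaks (−1.17, −1.92 to −0.39), PA Flag 1.78% of domains and 3.44% of hypoxia-only peaks (−1.66, −2.18 to −1.10), and WT Flag 4.45% of domains and 8.11% of hypoxia-only peaks (−3.66, −4.46 to −2.82).

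**Figure D5:**
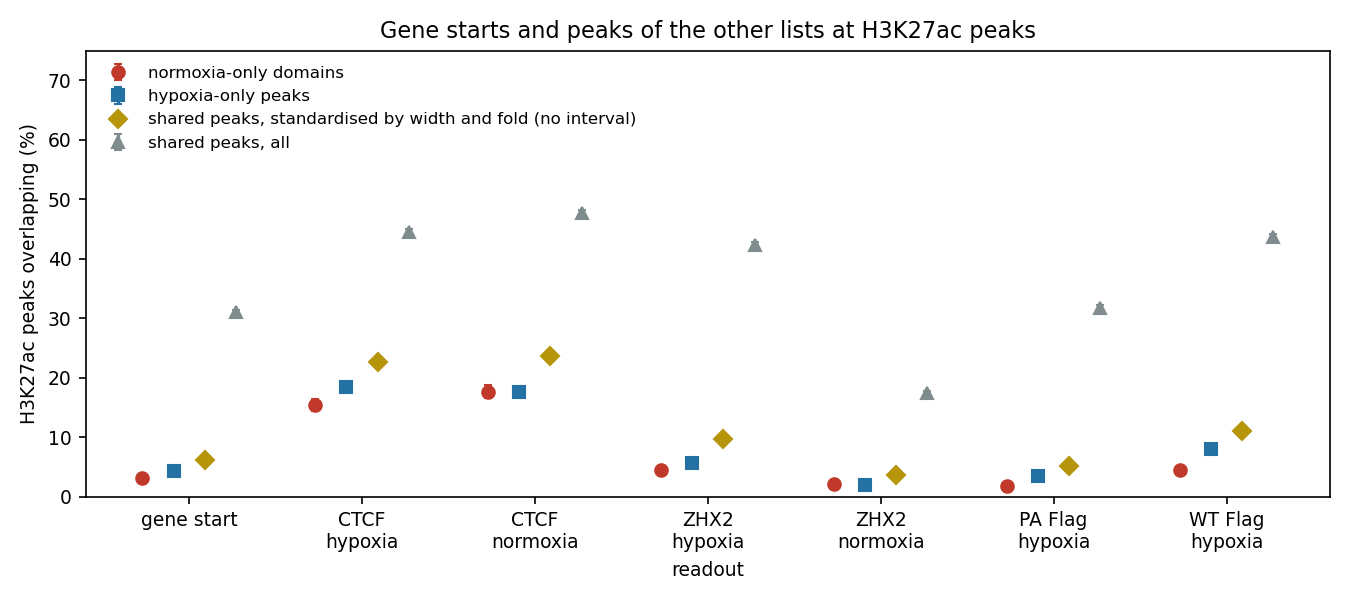
Percent of H3K27ac peaks that came within 1 kb of a protein-coding gene start or overlapped a peak of each other list, for normoxia-only domains, hypoxia-only peaks, shared peaks weighted to the domains' width and fold, and all shared peaks, with 95% Wilson intervals where a share is unweighted. Normoxia-only domains are lowest at the starts, at hypoxia CTCF, hypoxia ZHX2, PA Flag and WT Flag, and level with hypoxia-only peaks at normoxia CTCF and normoxia ZHX2.

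Where a domain did carry CTCF, the CTCF peak was usually strong. The median fold of the strongest CTCF peak on a domain was 77.3 in hypoxia and 71.2 in normoxia, against 21.3 in hypoxia and 26.0 in normoxia on shared peaks, and 19.0 over each whole CTCF list. Shared peaks whose fold and width lay between the quartiles of the domains had medians of 85.8 in hypoxia and 71.9 in normoxia, so strong CTCF was found on weak H3K27ac peaks of either kind. Among the domains leading by normoxia CTCF fold were those at the start of MYRF, a membrane-bound transcription factor (chr11:61752639-61752850, normoxia CTCF fold 542), in CCDC85C, nearest to the start of CCNK (503), near SH2B3, an adaptor of cytokine signalling (501), and near PRMT2, an arginine methyltransferase (482). Of the domains, 704 (15.1%) carried CTCF without ZHX2 or Flag, 268 (5.76%) ZHX2 or Flag without CTCF, and 142 (3.05%) both, against 11.2%, 16.7% and 38.4% of shared peaks.

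ZHX2 on domains was at the strength usual for its lists, with a median best fold of 3.40 in hypoxia and 3.52 in normoxia, against 3.33 over the whole hypoxia list and 3.35 over the whole normoxia list. The domain with the strongest hypoxia ZHX2 peak lay near PRMT2 (chr21:46697753-46698414), with a ZHX2 fold of 34.3 in hypoxia and 63.3 in normoxia. It is close to the end of chromosome 21, so reads there may be shared between copies and its folds are uncertain. The next were at the start of ELOVL2, a fatty acid elongase (chr6:11044040-11044653, hypoxia ZHX2 fold 10.4), at the start of CCNI2, a cyclin (chr5:132747106-132747508, 9.69), in CLVS1 (9.56) and in DLGAP2, a postsynaptic scaffold gene (9.08). All 5 were on ZHX2 in hypoxia and in normoxia.

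The PA and WT Flag lists are not separate sets of intervals, since all 15163 of 16019 PA peaks that overlapped a WT peak had the same start and end as it. The widest Flag peaks on domains were in the PA and the WT list alike, near ZNF337 (3761 bp), IQSEC3 (3712 bp), LOC124905351 (3289 bp), DUX4 (3055 bp) and in SYT12 (3014 bp). The IQSEC3 and LOC124905351 domains start at position 10007 of chromosome 12 and 10433 of chromosome 3, close to the chromosome ends, and DUX4 lies in a repeat array, so reads there may be shared between copies. Only 5 domains were on all 6 lists, against 4049 shared peaks (10.7%). They lay in SYT14, at the start of FOSL1, at the start of SYNM, in IGF2BP1 (an RNA-binding protein, fold 4.99) and near PRMT2.

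The last comparison asked whether CTCF and ZHX2 peaks inside the domains also lacked a hypoxia partner. Of 829 normoxia CTCF peaks inside domains, 117 had no hypoxia CTCF peak (14.1%, 11.9 to 16.6%), against 14.9% of those inside shared peaks and 17.7% of all normoxia CTCF peaks. The difference was −0.75 points (−3.00 to 1.82). Shared peaks weighted to the CTCF score of those in the domains had 6.13%, which turned the difference to 7.98 points. The normoxia CTCF peaks inside domains had a median fold of 70.1, against 15.6 inside shared peaks. In the other direction, 11 of 721 hypoxia CTCF peaks inside domains had no normoxia CTCF peak (1.53%), against 7.23% inside shared peaks (1.98% weighted by score), 12.3% inside hypoxia-only peaks and 6.96% of all hypoxia CTCF peaks. Inside hypoxia-only peaks 7.88% of normoxia CTCF peaks had no hypoxia partner.

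Normoxia ZHX2 peaks inside domains numbered 98, of which 32 had no hypoxia ZHX2 peak (32.7%, 24.2 to 42.4%), against 13.9% inside shared peaks and 37.4% of all normoxia ZHX2 peaks. The difference from shared peaks was 18.7 points (10.2 to 28.5), and 17.8 points when shared peaks were weighted by ZHX2 score. Inside hypoxia-only peaks the share was 48.4%, and outside H3K27ac 69.1%. Of 211 hypoxia ZHX2 peaks inside domains 143 had no normoxia ZHX2 peak (67.8%), against 70.4% inside shared peaks (77.6% weighted by score) and 72.6% of all. WT Flag peaks inside domains lacked a PA Flag peak in 133 of 209 (63.6%, 56.9 to 69.9%), against 41.1% inside shared peaks and 51.5% of all WT Flag peaks, and shared peaks weighted to the Flag peaks' width gave 64.7%.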

How the data were processed

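ChIP-seq libraries of T47D cells in 28 samples formed 8 immunoprecipitated groups of 2 (16 samples) and 12 samples without antibody, grouped by titles and antibody labels. The submitters' processing notes name the tools cutadapt, Bowtie2 and MACS2, without versions, and the build GRCh38 (hg38). The authors deposited 1 peak list per group. Pooling of the 2 samples and the use of inputs are not given in the sources used here. The fold enrichment (a ratio over background), the score and the −log10 q of each peak are the authors' deposited values, while Flag lists give positions only. In the H3K27ac lists the score follows the −log10 q. No per-sample column was left unused (0).

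Peaks off chromosomes 1 to 22 and X were left out (between 1 and 31 per list). Overlap meant at least 1 bp. Gene starts were those of the RefSeq promoter table (15812 of 19974 protein-coding genes) or, without an entry, either annotated end, with a window of 1 kb. Shared peaks were weighted to 10 width classes, or 10 width by 10 fold classes, of the domains. Clusters joined domains across at most 10 kb. No test was run, since each condition has 1 list. Named genes were the 20 domains of highest fold at starts, the 10 widest, the 10 genes (12 with ties) and 5 clusters with the most domains, list members (up to 4 at starts and 2 in spans, with further list members, the clusters of 4 and the domains near NPIPB15 named after their values were seen), the 5 domains with the strongest hypoxia ZHX2, strongest normoxia CTCF or widest WT Flag peak, and 9 fixed genes. Some genes that meet this rule are not reported here. The domains and the 24 gene lists were chosen with earlier results of these data known. Python 3.11.15, numpy 2.4.6, pandas 2.3.3 and scipy 1.17.1 were used, and overlap and weighting were tested on simulated data. Alternatives were another overlap rule, a 1 kb gap, a −log10 q of at least 5, lists of equal length, other windows and other weights.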

Additional observations from a re-analysis of the deposited data

How the results depend on the processing

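The number of domains was between 3802 and 5874 under 4 other rules, against 4651, within 1.5 times. The share at a gene start was 7.46% with a window of 3 kb. The share with another domain nearby was 19.2% when at least 50% of the shorter peak had to overlap, 15.8% with no hypoxia peak allowed within 1 kb, 16.1% with a −log10 q of at least 5, 21.6% in lists of equal length, and 43.1% with gaps of 50 kb. With no hypoxia peak within 1 kb, hypoxia CTCF overlapped 17.4%, normoxia CTCF 19.8% and hypoxia ZHX2 5.39%. With a −log10 q of at least 5 these shares were 17.2%, 19.6% and 5.29%. In 1 kb around the midpoint they were 16.8%, 19.7% and 5.27%, with normoxia ZHX2 at 2.60% and WT Flag at 5.14%. Weighted by width, the differences from shared peaks were −8.57 points at gene starts, −14.2 at hypoxia CTCF, −13.6 at normoxia CTCF, −13.2 at hypoxia ZHX2, −4.33 at normoxia ZHX2, −8.08 at PA Flag and −12.9 at WT Flag. Weighted by width and fold, they were −3.01, −7.26, −6.05, −5.15, −1.51, −3.38 and −6.54 points in the same order. The difference for normoxia CTCF peaks without a hypoxia peak turned from −0.75 to 7.98 points when weighted by score. The other 36 of 68 recomputed values stayed within the interval or within 1.5 times.

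No paired analysis was possible because each group has 1 list with no values per sample. Leaving out single replicates was not run for the same reason. Read depth is unknown, and the domains' median −log10 q of 6.03 stands against 3.49 for the weakest normoxia peak listed.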

Other observations

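Domains differed among themselves with their distance to hypoxia H3K27ac. The 849 domains at most 1 kb from a hypoxia peak lay in gene spans in 70.7%, overlapped hypoxia CTCF in 6.71% and hypoxia ZHX2 in 0.471%. The 522 domains over 50 kb from one lay in gene spans in 39.1%, overlapped hypoxia CTCF in 18.2% and hypoxia ZHX2 in 10.5%, at a median of 111 kb from a protein-coding start. Their median widths were close, 396 and 410 bp. The 144 domains at gene starts overlapped hypoxia CTCF in 29.2% and hypoxia ZHX2 in 26.4%.

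In windows of 1 Mb, chosen after their values were seen, the most domains lay around PHACTR1 (20 of 60 normoxia peaks, beside 6 hypoxia-only peaks), NCAM2 (18 of 46, beside 3) and STARD13 (18 of 56, beside 6). The window of the progesterone receptor gene PGR held 12 domains of 40 normoxia peaks, and none of its 37 hypoxia peaks was hypoxia-only. The ESR1 window held 14 of 55, beside 13 hypoxia-only peaks.

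At starts of other gene kinds, a domain lay at 141 of 18177 long noncoding RNA genes (0.776%), 87 of 15212 pseudogenes (0.572%), 17 of 1911 miRNA genes (0.890%) and none of 443 tRNA genes, where 0.736% of protein-coding genes had one. Among genes with any normoxia H3K27ac peak at a start the order differed, with 8.50% of pseudogenes, 3.79% of miRNA genes, 3.00% of long noncoding RNA genes and 1.15% of protein-coding genes.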
